A study of Mus musculus with 2 samples.

Results

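Muscle stem cells (MuSCs) and their myogenic progeny were examined in single cell RNA-seq of mononuclear cells from the hind limb muscles of mdx mice, which lack dystrophin and model Duchenne muscular dystrophy. There were 130 such cells among 8010 barcodes, 108 of 4527 in the Ctrl library and 22 of 3483 in the dKO library. They were chosen by measured UMIs (unique molecular identifiers, counted transcript molecules): a cell had at least 500 detected genes, a UMI of at least 3 of the 9 muscle genes Pax7, Myod1, Myf5, Chodl, Cdh15, Megf10, Msc, Musk and Myog, and no UMI of Ptprc, Pdgfra or Cdh5, which mark leukocytes, fibro-adipogenic progenitors (FAPs) and endothelial cells. No doublets were removed. These 9 genes and the 3 required at 0 are therefore described and support nothing.

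Both libraries came from mice carrying Pax7CreERT2/R26YFP on the mdx background (C57BL/10ScSn), Ctrl with Yy1+/+ and dKO with Yy1 f/f. Both had tamoxifen (TMX) for 5 days at 1.5 months of age, and muscle was taken 1 month later, with 3 mice pooled into 1 library of live sorted cells per genotype. The Cre acts only in cells that were expressing Pax7 at the time of TMX and in their descendants, so Yy1, which encodes a zinc finger transcription factor, stays intact in the other cells of the dKO muscle. The question behind the comparison was what loss of Yy1 in MuSCs changes in dystrophic muscle. With 1 library per genotype there is no replicate check and no test between genotypes. Every interval below is a 95% counting interval that covers counting error only, because cells of a library share their mice and their processing.

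MuSCs lie under the basal lamina of the myofibre and are marked by the paired box factor Pax7. When muscle is damaged, as it is continuously in mdx mice, they activate, express Myf5 and Myod1, divide as myoblasts, and then either return to quiescence under Notch signalling or switch on myogenin (Myog), leave the cell cycle and fuse. Fusion needs the membrane proteins Myomaker (Mymk) and Myomixer (Mymx), and sarcomere and acetylcholine receptor genes come on after Myog.

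Yy1 itself was at 371 UMIs (160 CPM, the UMIs per 1000000 UMIs of the group) in the Ctrl members and at 5 UMIs (8.31 CPM) in the dKO members, against 149 and 145 CPM in all other cells. Members held 2317381 UMIs in Ctrl and 601933 in dKO. The median member had 12722 UMIs in Ctrl (2047 to 80512) and 15048 in dKO (2824 to 81237), against 8023 and 7958 in the rest. In dKO the 5 deepest members carried 57.5% of all member UMIs, against 14.6% in Ctrl. The libraries shared 7 barcodes, none of them among the members.

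The label fitted most of the chosen cells. Of the marker genes that the rule did not use, Des, the muscle intermediate filament desmin, had a UMI in 97 of 108 Ctrl members (89.8%) and 21 of 22 dKO members (95.5%), against 8.16% and 5.78% of the rest. Gal, which encodes the neuropeptide galanin, had one in 61.1% of Ctrl but 22.7% of dKO members, against 2.39% and 0.605% of the rest. At the threshold itself, 78.8% of the 33 Ctrl cells with exactly 3 rule genes had a Des UMI and 32.1% of the 28 Ctrl cells with exactly 2. In dKO these shares were 80% of 5 cells and 47.4% of 19 cells. A further 32 Ctrl and 10 dKO cells had 3 or more rule genes but were left out for a UMI of Ptprc, Pdgfra or Cdh5.

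**Figure D1:**
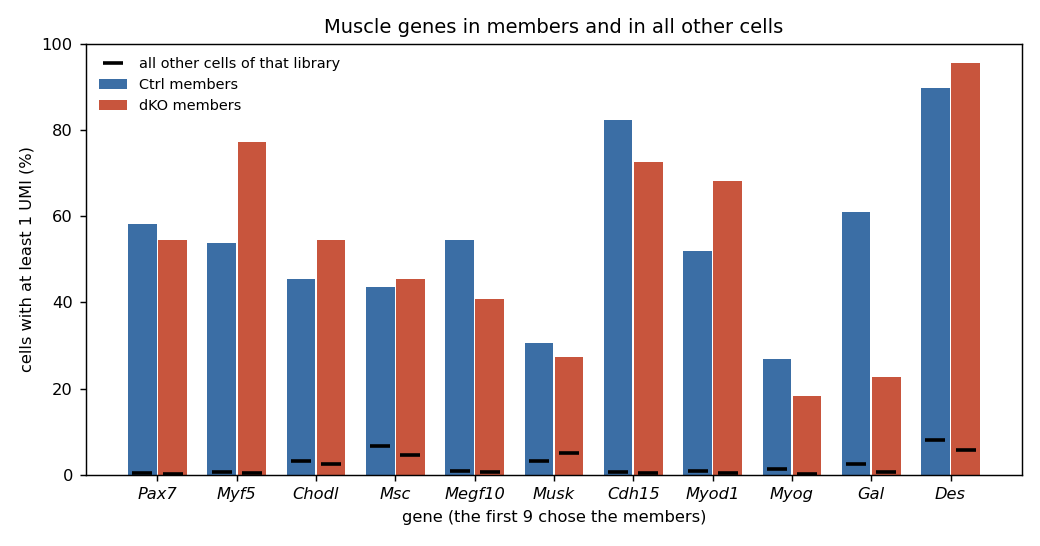
Bars give the percentage of members with at least 1 UMI of each gene (Ctrl 108 cells, dKO 22 cells), and black marks the percentage among all other cells of that library. Des and Gal did not choose the members, and Gal stood at 61.1% in Ctrl against 22.7% in dKO.

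A few members went against the label. With at least 5 of 10 tenocyte markers detected, a limit set after the data were seen, 4 Ctrl members and 1 dKO member carried 145 and 12 UMIs of Tnmd (tenomodulin, a tendon membrane protein) and 0 UMIs of Des, Pax7, Myf5, Myod1, Myog and Cdh15. All 5 had UMIs of the rule genes Chodl and Msc. They held 80.3% of the Ctrl and 84% of the dKO members' UMIs of Col1a1, a fibrillar collagen chain. Of the 10 FAP markers, 5 or more were detected in 27 Ctrl and 5 dKO members, with the summed level at a median of 946 CPM per cell in Ctrl (0 to 41497) and 554 in dKO (0 to 15452), against 18085 and 22580 CPM in the rest. Summed markers of endothelial, B and T cells were at 50.9 CPM or less in the members, and those of neutrophils at 36.7 CPM in Ctrl and 103 CPM in dKO. In dKO 1 member reached 4193 CPM of neutrophil markers, with 34 of 35 S100a9 UMIs in 1 cell and 18 of 19 S100a8 UMIs in 1 cell, and 16 of 22 members were at 0. That level fits the dKO member with 13594 UMIs, which held 22 Myog UMIs and 41342 CPM of sarcomere genes. It is 1 of the 4 dKO members with a Myog UMI, and whether it is a mixed droplet was not tested. Of the 10 macrophage markers, 5 or more were detected in 4 Ctrl members and no dKO member, at up to 1109 CPM per cell in Ctrl and 736 CPM in dKO. Smooth muscle and pericyte markers were at 543 and 450 CPM. Cd3d, Cd3e and Cd4, which define T cells, were at 0 in both libraries.

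Members made up a smaller share of the dKO library. They were 2.49% of the 4335 Ctrl cells with 500 genes (2.05 to 3) and 0.661% of the 3329 dKO cells with 500 genes (0.415 to 0.999). The dKO share was thus -1.83 points from that of Ctrl (-2.39 to -1.29). Because detection of 3 genes depends on depth, the rule was also applied to cells thinned to a fixed number of UMIs, an alternative chosen after seeing the data. At 5000 UMIs it found 1.97% of 2949 Ctrl and 0.484% of 2271 dKO cells, with 1386 and 1058 shallower cells left out, and at 2000 UMIs 0.797% of 3892 and 0.265% of 3023. The share was lower in dKO at each depth, and since shares of a library sum to 1, fewer MuSCs and more cells of other types cannot be told apart.

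The first comparison within the members asked how cells that had switched on Myog differ from those that had not. Myog, a basic helix-loop-helix factor, had a UMI in 29 of 108 Ctrl members (26.9%, 18.8 to 36.2) and in 4 of 22 dKO members (18.2%, 5.19 to 40.3). The difference was -8.67 points, with an interval from -22.8 to 13. Myog is itself a rule gene, so these shares are a description, and with the rule applied without Myog they were 22.5% of 102 Ctrl and 14.3% of 21 dKO cells. Among all other cells 1.28% in Ctrl and 0.151% in dKO had a Myog UMI. The positive Ctrl cells held 1 to 238 Myog UMIs with a median of 29, and the 4 dKO cells held 7, 22, 51 and 418. A single cell therefore gave 83.9% of the dKO Myog UMIs. Positive cells were also deeper, with a median of 34514 against 10735 UMIs in Ctrl and 48018 against 11952 in dKO. When each member was thinned to 5000 UMIs, the shares were 26.7% of 90 and 21.1% of 19.

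**Figure D2:**
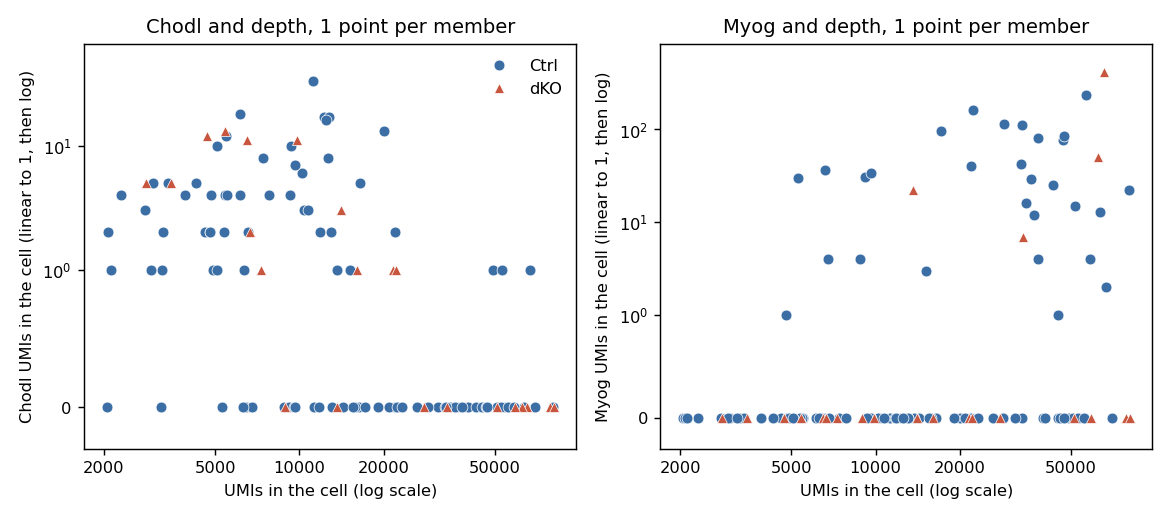
Each point is 1 member, placed by its total UMIs (log scale) and its UMIs of Chodl (left) or Myog (right). Cells with several Chodl UMIs lie at low to middle depth, and in both libraries the Myog-positive cells had a higher median depth than the Myog-negative cells.

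Pax7, Myf5 and Chodl, all rule genes, had a UMI in a larger share of the Ctrl cells without Myog. Pax7 had a UMI in 57 of 79 Myog-negative and 6 of 29 Myog-positive Ctrl members, and Myf5 in 48 and 10. Chodl had one in 46 of 79 against 3 of 29. Within the Myog-negative cells Chodl also marked the shallow ones, at a median of 6248 UMIs against 23282 for cells without it in Ctrl and 6964 against 54968 in dKO. Among the 15 satellite cell and quiescence genes measured with at least 50 UMIs, 3 were 2-fold or more lower in Myog-positive Ctrl cells and none 2-fold higher, against 7.51% lower and 3.72% higher of all 5514 genes, with a list median of -0.76 on the log2 scale. Pax7 and Chodl were among these 3, and the other 12 were not past 2-fold. In dKO, 2 of 10 measured genes of this list were higher and 2 lower, at a median of 0.34.

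Sarcomere genes stood higher in Myog-positive Ctrl cells, and the highest levels were in a few cells. Over 5514 genes, 205 (3.72%) were at least 2-fold higher and 414 (7.51%) at least 2-fold lower in Myog-positive cells. Of the 30 sarcomere genes, 24 were measured and all 24 were among the higher ones, at a median log2 ratio of 5.40 against -0.02 over all genes. Without the top cell of each gene on each side, Des was at 0.93 and Myh2, then without a UMI, at 0.54. Summed over the list, positive cells ran from 1201 to 118378 CPM with a median of 6229, and negative cells from 0 to 9404 CPM. The ranges overlapped, and 4 of the 29 positive cells were at 58818 CPM or more. The 10 markers of mature myofibres, which share genes with this list, summed to 2369 CPM in Ctrl and 4072 CPM in dKO members against 686 and 268 CPM in the rest, with 5 or more of them detected in 5 Ctrl and 3 dKO members, and their part was not tested. Ttn, the giant spring protein titin, stood at 3039 CPM in Myog-positive and 556 CPM in Myog-negative cells (log2 ratio 2.45, 2.33 to 2.57). Per cell it ran from 0 to 19688 CPM with a median of 1692 in the positive cells, and from 0 to 3325 with a median of 0 in the negative cells. The ranges overlapped, since 28 of 29 positive cells but also 38 of 79 negative cells had a Ttn UMI. Embryonic myosin heavy chain (Myh3) was nearly confined to the positive side, with 443 UMIs in 9 cells, 56.2% of them in 1 cell, against 1 UMI in 1 cell. Adult fast myosins were seen in very few cells: Myh1 in 7, Myh4 in 4 and Myh2 in 1 positive cell, and in 0 of the 79 negative cells. A single cell held 92.4% of the Myh1 UMIs.

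Fusion and synapse genes followed. Mymk was at 272 UMIs in 17 of 29 positive cells and 12 UMIs in 4 of 79 negative cells (log2 ratio 4.99, 4.16 to 5.96), and Mymx at 314 against 28 UMIs (3.97, 3.41 to 4.59). Of the 9 fusion and adhesion genes measured, these 2 and Jam3 were 2-fold higher and Kirrel was 2-fold lower. The acetylcholine receptor list had 4 of 6 genes 2-fold higher. Its highest ratio belonged to Chrng, the gamma subunit that the fetal receptor uses, at 107 against 18.5 CPM (2.53, 1.89 to 3.22), with a UMI in 21 of 29 positive and 9 of 79 negative cells. Of 13 myogenic regulators measured, 4 were 2-fold higher in positive cells, namely Myod1 (2.23, 1.95 to 2.52), the MADS box factors Mef2c (5.05, 3.78 to 6.70) and Mef2a (1.77, 1.48 to 2.06), and Id1, an inhibitor of MyoD-family factors (1.81, 1.43 to 2.20). Myf5 (-2.80, -3.57 to -2.12) and Msc, a repressor related to the MyoD family (-5.10, -7.39 to -3.52), were lower, as was Id3, which is related to Id1 (-1.23, -1.42 to -1.04), although Myod1, Myf5 and Msc are rule genes.

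The genes at the top by counting bound included muscle genes that had no part in the rule. Synpo2l, which encodes an actin-associated protein of the Z-disc, was at 119 against 2.96 CPM (log2 ratio 5.33, 3.94 to 7.23) and had a UMI in 22 of 29 positive and 3 of 79 negative cells. Srl, which encodes sarcalumenin, a calcium-binding protein of the sarcoplasmic reticulum, stood at 143 against 6.66 CPM (4.43, 3.46 to 5.58). The RNA-binding splicing regulator Rbm24 was at 316 against 51 CPM (2.63, 2.25 to 3.03). Klhl40, a kelch protein that stabilizes thin filaments, was at 130 against 22.2 CPM (2.55, 1.96 to 3.17). The lncRNA 5430431A17Rik (chr7:44484517-44485413, GRCm38.p6) had 56 UMIs in 14 positive cells and 0 in the negative cells, with a lower counting bound of 4.36 on the log2 ratio.

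Of 12 cell cycle inhibitor genes measured, 2 were 2-fold higher and 3 were 2-fold lower in Myog-positive Ctrl cells, at a median of 0.12. Cdkn1c, which encodes the cyclin-dependent kinase inhibitor p57, was at 1085 CPM in Myog-positive and 104 CPM in Myog-negative Ctrl cells (log2 ratio 3.39, 3.13 to 3.65). Its per-cell level ran from 0 to 15106 CPM with a median of 295 in positive cells and from 0 to 2607 with a median of 0 in negative cells. Rb1, the retinoblastoma gene, was also higher (1.74, 1.09 to 2.42), and Cdkn1a (p21) stood just under 2-fold (0.98, 0.82 to 1.14). The lower ones were the antiproliferative genes Btg2 (-2.16, -2.50 to -1.83) and Btg1 (-1.18, -1.43 to -0.93), and Cdkn2b, which encodes p15 (-1.08, -1.84 to -0.36). H19, an imprinted noncoding RNA, was at 751 against 167 CPM (2.17, 1.95 to 2.39). Of the 23 cell cycle genes measured in Ctrl, 1 was 2-fold higher (Top2a, DNA topoisomerase, 1.10, 0.80 to 1.40), 0 were 2-fold lower, and the list median was 0.29. A single positive cell held 43.4% of the Top2a UMIs there, and without the top cell on each side Top2a was at 0.74.

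Transcripts of dividing cells were found on both sides of Myog in Ctrl. A UMI of Mki67 or Top2a, both made in dividing cells, was found in 12 of 29 Myog-positive (41.4%, 23.5 to 61.1) and 21 of 79 Myog-negative Ctrl members (26.6%, 17.3 to 37.7). Thinned to 5000 UMIs, these shares were 16.7% of 24 and 25.8% of 66, so the order turned with depth and none is read from it. In dKO, 1 of 4 Myog-positive and 9 of 18 Myog-negative members had such a UMI, and 17 of the 18 cell cycle genes measured there were at least 2-fold lower in the Myog-positive cells, against 16.4% of all 1769 genes. Mki67 had 2 UMIs on the Myog-positive side and 211 on the Myog-negative side in dKO, but 114 and 153 in Ctrl.

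Immediate early and matrix genes were lower in Myog-positive cells. Of 16 immediate early genes, which are transcribed within minutes of a stimulus and also respond to tissue dissociation, 13 were at least 2-fold lower and 0 higher in Ctrl, at a list median of -2.13. Fos, an AP-1 subunit, stood at 61.1 against 962 CPM (-3.98, -4.38 to -3.60), and per cell reached 655 CPM in positive and 26487 CPM in negative cells. Egr1, a zinc finger factor, stood at 217 against 1578 CPM (-2.87, -3.08 to -2.66), with medians per cell of 104 and 1038 CPM. In members with at least 20000 UMIs, a subset chosen after seeing the data, the list median was -0.71 in place of -2.13.

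Of 28 matrix genes measured, 24 were at least 2-fold lower in Myog-positive Ctrl cells and 0 were higher, with a median of -2.53. The basement membrane collagen gene Col4a2 had 2 UMIs in positive and 134 in negative cells (-5.58, -8.64 to -3.70), and its neighbour Col4a1 had 16 and 286 (-3.67, -4.50 to -2.95). Without the tenocyte-marked cells the median was -1.56, as some of these UMIs lie in those cells. The list also holds the FAP markers Dcn (-3.23), Col1a1 (-5.28) and Col3a1 (-2.27), and the part of FAP RNA in these values was not tested. Of 10 Notch list genes measured, 2 were 2-fold higher and 5 lower, at a median of -1.13. The receptor Notch3 (-3.29, -4.54 to -2.27) and the targets Heyl (-3.96, -5.43 to -2.80) and Hes1 (-1.40, -2.03 to -0.81) were lower in Myog-positive cells, while the ligand Dll1 (1.73, 1.02 to 2.49) and Hes6, which encodes an inhibitor of Hes1 (1.38, 1.00 to 1.78), were higher. Col5a1 and Col5a3, collagen genes held by the same list, were at -3.63 and -2.38. Meg3, an imprinted noncoding RNA, was at 8.29 against 168 CPM (-4.34, -5.57 to -3.34).

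Metabolic genes differed little by comparison. All 38 nuclear-encoded respiratory chain subunits measured were above a ratio of 1 in Myog-positive Ctrl cells, but by log2 ratios of 0.10 to 0.72 (median 0.38), and none was past 2-fold. Of 16 glycolysis genes, 1 was higher, the muscle phosphoglycerate mutase Pgam2 with 58 against 5 UMIs (4.02, 2.72 to 5.70), and 1 lower, the hexokinase gene Hk2 (-1.34, -2.14 to -0.61). Cav3, the muscle caveolin, was the 1 higher gene of 8 in the dystrophin complex list (5.29, 3.70 to 7.60), and 2 were lower. None of 30 ribosomal protein genes and none of 6 interferon and MHC class I genes was past 2-fold. Chemokine and cytokine genes had 5 of 7 lower, apoptosis genes 3 of 13 lower, and heat shock genes 1 of 14 higher and 2 lower. Growth factor and imprinted genes had 3 of 18 higher and 5 lower.

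**Figure D3:**
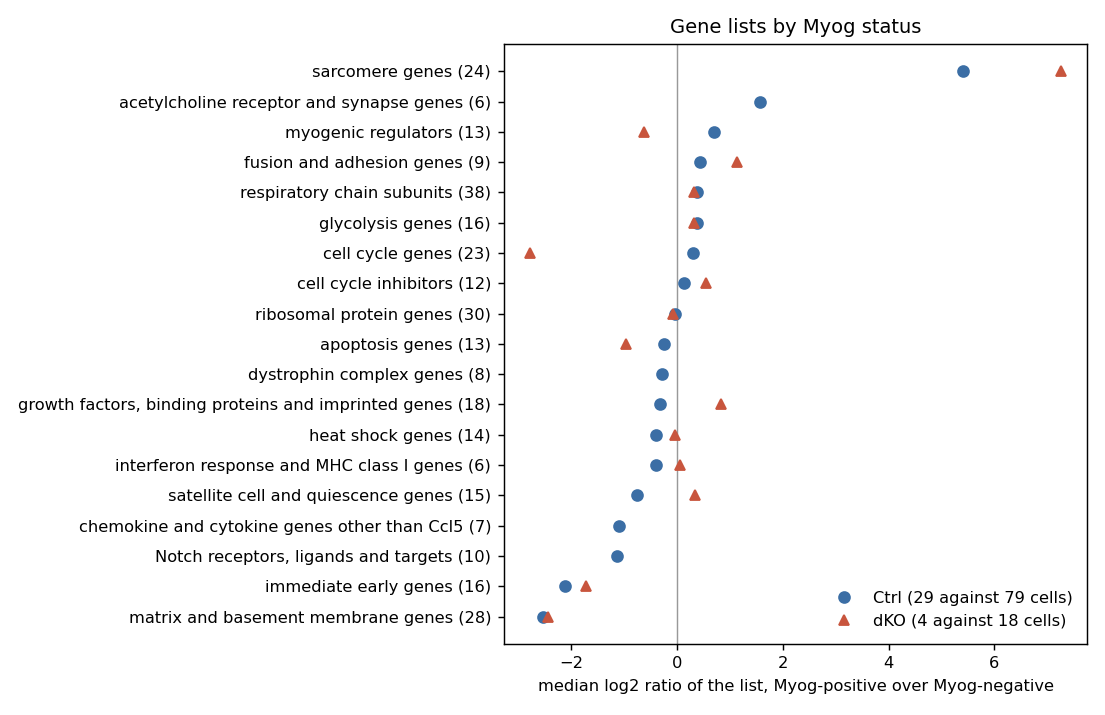
Each point is the median log2 ratio, Myog-positive over Myog-negative, of the measured genes of a list (number measured in Ctrl in brackets). A dKO point is shown where at least 5 genes were measured there. Sarcomere genes lie at 5.40 in Ctrl and 7.26 in dKO, immediate early genes at -2.13 and -1.73, and cell cycle genes at 0.29 and -2.78.

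The dKO library took no part in naming these genes, so it gave a second look at them on 4 against 18 cells. Of these 4 cells, 1 fits the neutrophil-marked member described above. In dKO, 136 of 1769 genes (7.69%) were at least 2-fold higher and 291 (16.4%) at least 2-fold lower in Myog-positive cells. All 15 genes named for a higher level in Ctrl were higher in dKO too, each with an interval off a ratio of 1. Of the 15 named for a lower level, 14 had at least 10 UMIs in dKO. All 14 were lower and 13 had intervals off 1, the exception being Igfbp7 (-0.30, -2.82 to 1.70). Ttn was at 4498 against 131 CPM in dKO (5.10, 4.71 to 5.52), Cdkn1c at 211 against 53.9 CPM (1.97, 1.18 to 2.79) and Egr1 at 120 against 1546 CPM (-3.69, -4.39 to -3.06). All 17 sarcomere genes measured in dKO were at least 2-fold higher, at a median of 7.26.

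Since MyoD-family factors bind E-boxes, the promoters of the named genes were searched for CAGCTG, a form they prefer, which reads the same on both strands. The motif was chosen after the named genes were seen. RefSeq windows (GRCm38.p6) run from 250 bases before to 50 after each transcript start. The E-box was in a window of 7 of the 12 genes with one that were named as higher in Myog-positive cells (58.3%) and of 2 of 11 named as lower (18.2%), against 18.3% of 27025 genes and 16.3% of 32851 windows. A match is a description and not a binding site. The stretches below show matches before an annotated transcript start in 5 of the 7 genes, with the E-box in capitals, 5′ to 3′ along the strand of the gene. They lie at chr1:87205645-87205672 and chr1:87205668-87205695 (plus strand, 155 and 132 bases before the start) for Chrng, chr9:121777586-121777613 (plus, 10 bases before) for Klhl40, chr4:43523765-43523792 (minus, 227 bases before) for Tpm2, chr19:34255539-34255566 (minus, 182 bases before) for Acta2, and chr1:177444595-177444622 (plus, 47 bases before the nearer of its starts there) for Zbtb18. Those of Chrng and Tpm2 lie outside the RefSeq gene bounds, while those of Klhl40, Acta2 and Zbtb18 lie inside them, before an alternative start.
Chrng, first E-box: tatcctgggaaCAGCTGacaatgcagtg
Chrng, second E-box: cagtggtcagaCAGCTGgtggggccagc
Klhl40: aagcctctgccCAGCTGtcctctgtgcg
Tpm2: ggccccagccaCAGCTGctgctgggccc
Acta2: atccccataagCAGCTGagctgcctcct
Zbtb18: tgatgtcagagCAGCTGacagcctgcca

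Tpm2, a tropomyosin gene, was at 938 against 197 CPM in Ctrl Myog-positive and Myog-negative cells (2.25, 2.05 to 2.45). Acta2, the smooth muscle actin gene that myoblasts also use, was at 814 against 180 CPM (2.17, 1.97 to 2.39). Zbtb18, which encodes a zinc finger repressor, was at 132 against 25.9 CPM (2.35, 1.80 to 2.93). The letters ATGGCGG, the core of the YY1 motif, searched on both strands with no overlap with the E-box, were in a window of 4.69% of the 27025 genes and in none of the 9 and 10 genes with a window that are named next for dKO against Ctrl.

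The second comparison set the 22 dKO members against the 108 Ctrl members. Of 6285 genes with at least 50 UMIs, 205 (3.26%) were at least 2-fold higher and 416 (6.62%) at least 2-fold lower in dKO. MHC class I and interferon response genes stood higher, and Ech1, Suclg2, Igfbp5, Gal and some matrix genes stood lower. All of these values rest on few dKO cells. In each pair below the dKO level comes first.

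The clearest higher group presents antigen. B2m, the light chain of MHC class I, was at 741 against 210 CPM (log2 ratio 1.82, 1.63 to 2.01). Per cell it ran from 0 to 2392 CPM with a median of 789 in dKO and from 0 to 1038 with a median of 170 in Ctrl. The ranges overlapped, with a UMI in 21 of 22 dKO and 89 of 108 Ctrl members. The heavy chain genes H2-K1 (430 against 106 CPM, 2.02, 1.76 to 2.28, with 33.6% of its dKO UMIs in 1 cell) and H2-D1 (402 against 135 CPM, 1.58, 1.33 to 1.83) were higher too, with medians per cell of 301 against 81.2 and 439 against 127 CPM. H2-Q4, a nonclassical class I gene, was at 71.4 against 18.1 CPM (1.98, 1.33 to 2.63).

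Interferon-induced genes went the same way. Bst2, the membrane protein tetherin, stood at 571 against 73.8 CPM (2.95, 2.68 to 3.23), with a UMI in 18 of 22 dKO and 48 of 108 Ctrl members and 36.6% of its dKO UMIs in 1 cell. Isg15, a ubiquitin-like modifier, had 74 UMIs in 10 dKO members and 19 UMIs in 10 Ctrl members (3.91, 3.16 to 4.72), with 31.1% of the former in 1 cell. Psmb8, an immunoproteasome subunit, was at 131 against 19.4 CPM (2.76, 2.21 to 3.32), but 50.6% of its dKO UMIs lay in 1 cell. Shares above 25% kept H2-K1, Bst2, Isg15 and Psmb8 out of the named genes. With the top cell of each library left out gene by gene, they were at 1.64, 2.69, 4.16 and 2.08. Of the 30 genes of the interferon and MHC class I list, 10 were measured, 9 of them at least 2-fold higher and 1 (Irf1, -0.23, -0.93 to 0.42) neither, at a list median of 1.77 against -0.02 over all genes. Of these 9, Ifi35 lost the call without the top cell in each library, at 0.91. The dKO library was also higher in all other cells, which include some with Pax7 or Myog UMIs. There all 30 genes of the list were measured and above a ratio of 1, at a median of 0.74. Of these, 7 were at least 2-fold higher and 0 lower, against 133 higher and 451 lower of all 13670 genes. Single genes differed by less than in members: 0.37 (0.36 to 0.39) for B2m, 0.61 (0.59 to 0.63) for H2-K1, 0.87 (0.84 to 0.90) for Bst2 and 1.09 (1.05 to 1.14) for Isg15. B2m was at 1801 CPM in the other dKO cells and 1392 CPM in the other Ctrl cells, levels above those of the members, and the part of free RNA in the members' values was not tested.

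Ech1 and Suclg2 were the named genes with the lowest ratios. Ech1, which encodes an enoyl-CoA isomerase of fatty acid oxidation, had 1 UMI in 1 of 22 dKO members and 174 UMIs in 62 of 108 Ctrl members (-5.50, -10.81 to -3.00). Suclg2, a subunit of succinyl-CoA ligase in the citric acid cycle, had 1 UMI in 1 dKO member and 125 UMIs in 55 Ctrl members (-5.02, -10.34 to -2.52). Per cell Ech1 ranged from 0 to 489 CPM with a median of 52.7 in Ctrl, and 21 of the 22 dKO members were at 0. Neither gene differed to this extent in the rest, where the ratios were -0.03 (-0.10 to 0.04) for Ech1 and 0.16 (0.03 to 0.29) for Suclg2. With at most 3 markers of each other non-muscle class, Ech1 was at -2.16 and Suclg2 at -0.57 in members. Without the 7.5% of cells with most UMIs they were at -2.27 and -1.14. The only dKO UMI of each gene lay in a deep member that this last choice left out (58908 and 62445 UMIs). The dKO side was then at 0 and set to 3 UMIs, so these ratios do not measure a weaker difference. The values under the marker limit can rest on the same setting.

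Chchd10, a protein of the mitochondrial intermembrane space, had 6 UMIs in 3 dKO members and 406 in 44 Ctrl members (-4.14, -5.59 to -3.00), against -0.90 (-1.06 to -0.75) in the rest. Under the same marker limit it was at -1.41. Ndufc1, a subunit of respiratory complex I, was at 36.5 against 261 CPM (-2.83, -3.52 to -2.22), against -0.28 (-0.33 to -0.22) in the rest. Per cell its medians were 8.01 CPM in dKO and 178 CPM in Ctrl. In the respiratory chain list, of 38 nuclear-encoded subunits measured, 1 was 2-fold lower (Uqcrc1, -1.35, -1.81 to -0.93) and 0 were 2-fold higher, at a median of -0.24. Ribosomal protein genes, 30 measured, had none past 2-fold either way.

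Igfbp5, Cd200 and Gal were also named as lower. Igfbp5, an insulin-like growth factor binding protein, was at 19.9 against 337 CPM (-4.08, -5.04 to -3.27), with a UMI in 7 of 22 dKO and 63 of 108 Ctrl members. The highest dKO cell had 354 CPM and the highest Ctrl cell 3902 CPM. In the rest Igfbp5 was slightly higher in dKO (0.22, 0.19 to 0.26). Igfbp4 (3 against 106 UMIs, -3.20, -5.50 to -1.61) and Igfbp3 (6 against 78 UMIs, -1.76, -3.25 to -0.57) were lower in dKO members too, while the growth factor gene Igf2 was higher (449 against 184 CPM, 1.29, 1.06 to 1.51). Cd200, an inhibitory ligand for myeloid cells, was at 16.6 against 153 CPM (-3.20, -4.28 to -2.31) and had a UMI in 27.3% against 71.3% of members. Gal was at 253 against 1506 CPM (-2.58, -2.82 to -2.34), and 57.9% of its dKO UMIs lay in 1 cell. Of the 19 genes measured in the growth factor and imprinted list, 2 were 2-fold higher and 6 lower, at a median of -0.64. Without the top cell of each gene in each library the higher ones, Igf2 and Bmp4, were at 0.98 and 0.87.

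Gal and Spp1, which encodes the secreted protein osteopontin, were the named genes that were lower past 2-fold in the rest as well, at -4.19 and -1.02. Spp1 stood at 71.4 against 405 CPM in members (-2.50, -2.98 to -2.06). Apoe, apolipoprotein E, was at 43.2 against 273 CPM in members (-2.66, -3.29 to -2.10) and at 4576 against 5325 CPM in the rest. Apoe and Spp1 are abundant in macrophages, whose 10 markers summed to 58.1 CPM in dKO and 97.1 CPM in Ctrl members, and the part of macrophage RNA in these values was not tested. For 9 of the 10 lower genes and all 10 higher genes the members' interval lay apart from that of the rest, on the side away from a ratio of 1. The exception was Gal, whose ratio was further from 1 in the rest. These genes were named for bounds far from a ratio of 1 in the same members. The median log2 ratio over all genes in the rest was -0.04. Intervals lying apart were therefore nearly fixed in advance, and their count gives no support to a change limited to members. Ckb, brain-type creatine kinase, was another of the lower genes, with 3 UMIs against 172 (-3.90, -6.19 to -2.33), but at -0.91 when at least 2 rule genes sufficed. When cells with Ptprc, Pdgfra or Cdh5 were kept, Spp1 was at -0.94 and Apoe at -0.87, both short of 2-fold, and Ckb at -1.35.

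**Figure D4:**
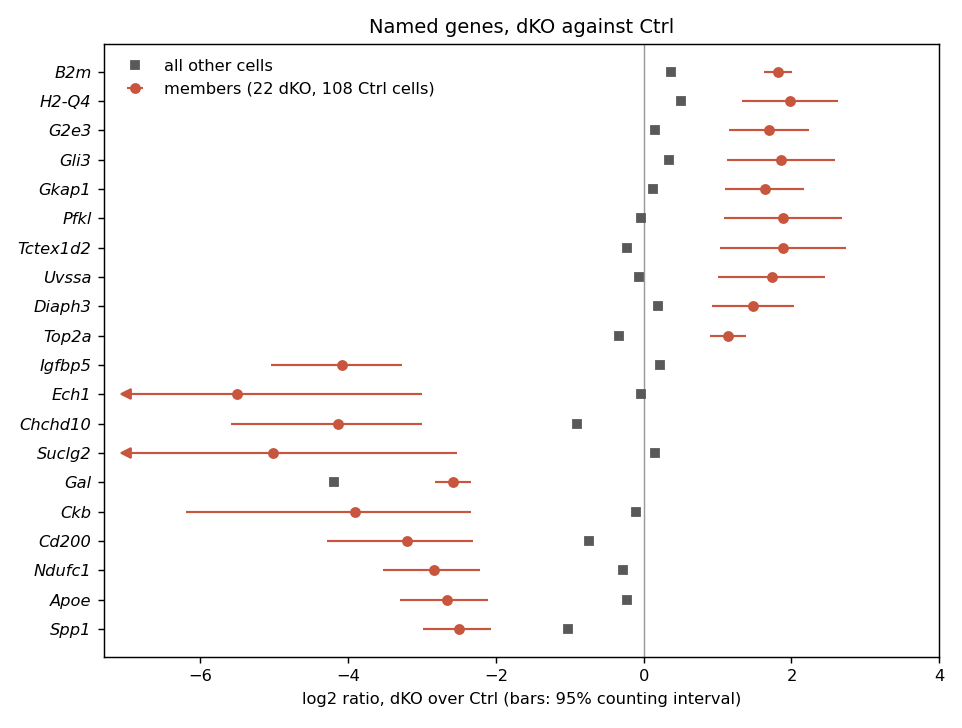
Points give the log2 ratio, dKO over Ctrl, of the 10 highest and 10 lowest genes by counting bound in members (bars are 95% counting intervals, cut at -7 for Ech1 and Suclg2), and squares the ratio in all other cells. Squares lie between -1.02 and 0.50 for every gene but Gal, at -4.19.

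Some cell cycle genes stood higher in dKO members, in few cells and not under every choice of cells. Of 23 measured, 6 were at least 2-fold higher (Mki67, Top2a, Cdk1, Ccnb2, Cenpf and Cdc20) and 0 lower, at a median of 0.52. Mki67 was at 354 against 115 CPM (1.62, 1.35 to 1.88) and had a UMI in 10 of 22 dKO and 27 of 108 Ctrl members. The centromere protein gene Cenpf (1.59, 1.30 to 1.88) and the mitotic regulator Cdc20 (1.65, 1.21 to 2.08) had 39.8% and 57.8% of their dKO UMIs in 1 cell. Top2a was at 370 against 168 CPM (1.14, 0.90 to 1.38), carried by 8 of 22 and 24 of 108 cells. A UMI of Mki67 or Top2a was in 10 of 22 dKO members (45.5%, 24.4 to 67.8) and 33 of 108 Ctrl members (30.6%, 22.1 to 40.2), and in 36.8% of 19 and 23.3% of 90 after thinning to 5000 UMIs, with overlapping intervals. Where members had at most 3 markers of each other non-muscle class, the list median was -1.07 and Top2a stood at -1.03, and without the 7.5% of cells with most UMIs they were 2.04 and 4.22, so the direction turned with which cells were kept. Without the top cell of each gene in each library, Cdk1, Ccnb2 and Cdc20 were at 0.87, 0.66 and 0.82.

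Other named genes higher in dKO had few UMIs each. The Hedgehog pathway factor Gli3 had 33 UMIs in 13 dKO members and 35 in 22 Ctrl members (1.86, 1.13 to 2.59). The formin gene Diaph3, needed in cytokinesis, had 50 and 69 UMIs (1.48, 0.93 to 2.03), and the ubiquitin ligase gene G2e3 55 and 65 (1.70, 1.16 to 2.24). Pfkl, a phosphofructokinase of glycolysis, had 28 and 29 UMIs (1.89, 1.09 to 2.69), and the repair gene Uvssa 32 and 37 (1.74, 1.01 to 2.46). Gkap1 and Tctex1d2 stood at 1.64 (1.10 to 2.17) and 1.89 (1.04 to 2.74). G2e3 was at 0.62 and Diaph3 at 0.99 with at most 3 markers of each other non-muscle class, and Gkap1 at 0.99 without the 7.5% of cells with most UMIs and at 0.89 by the mean of each cell's CPM. In the rest these 7 genes lay between -0.23 and 0.35.

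Matrix genes were lower in dKO members for 11 of 29 measured and higher for 1 (Col15a1, 1.27, 0.48 to 2.02), at a median of -0.50. Without the top cell in each library Col15a1 was at -0.03, and the lower calls of Tnc and Col3a1 were lost at -0.40 and -0.96. Col1a2 stood at 332 against 970 CPM (-1.55, -1.76 to -1.34) and Postn, which encodes periostin, at 44.9 against 233 CPM (-2.38, -2.99 to -1.82), with 81.5% of its dKO UMIs in 1 of 3 cells. FAP markers moved with them, at 736 CPM in dKO and 1429 CPM in Ctrl members summed over the list, and their part was not tested. When cells with Ptprc, Pdgfra or Cdh5 were kept, the median of the list was 0.06.

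Few genes of the stem cell and myogenic lists were past 2-fold, but both lists hold rule genes. None of 16 satellite cell and quiescence genes was past 2-fold, at a median of -0.12. Of 14 myogenic regulators, 1 was lower: Id1 (-1.38, -1.99 to -0.81). Pax7 and Chodl in the first list and Myod1, Myf5, Myog and Msc in the second chose the members. These tallies are therefore a description and give no support to a lack of change. Of the Notch list, 2 of 12 were 2-fold lower, namely Hes1 (-1.11, -1.93 to -0.38) and Heyl (-1.57, -2.56 to -0.72). Heyl was lower in the rest as well, at -1.63 (-1.93 to -1.34). Among cell cycle inhibitors Cdkn1c was at 99.7 against 512 CPM (-2.36, -2.76 to -1.99) with a UMI in 36.4% of dKO and 37% of Ctrl members, and with 53.3% of the dKO UMIs in 1 cell. Cdkn1a was at 1145 against 592 CPM (0.95, 0.82 to 1.08), short of 2-fold.

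Sarcomere genes, 26 measured, had 7 higher and 4 lower in dKO, at a median of 0.30. Of the 1074 dKO UMIs of Acta1, skeletal muscle actin, 1073 lay in the 4 Myog-positive cells and 56.5% in 1 cell. Without the top cell of each gene in each library, Myl1, Mylpf, Tnnt3, Actn2 and Unc45b lost the higher call and Myh1, Myh2 and Myh4 the lower one. Tnnt3 and Actn2 turned to -0.96 and -0.87. Myh4 turned from -2.77 to 0.36 and Myh2 from -3.99 to 1.96, where sides left at 0 were set to 3 UMIs, so no direction is read from these 2 genes. Chemokine and cytokine genes other than Ccl5, 10 measured, had 3 higher (Cxcl2 at 1.05, 0.47 to 1.62, with Ccl2 and Ccl7) and 4 lower, among them the neutrophil attractant Cxcl1 (-1.48, -1.90 to -1.09) and Il33, an alarmin (-1.16, -1.87 to -0.52), with Csf1 and Spp1. Of the dKO UMIs of Cxcl2, 78% lay in 1 cell, and without the top cell in each library Cxcl2 was at -0.45 and Ccl7 at 0.83. In the rest, Cxcl1 and Il33 were higher in dKO, at 0.78 and 0.87. Immediate early genes had 1 of 16 higher, Atf3 at 379 against 127 CPM (1.57, 1.32 to 1.83), and 2 lower, Ier3 and Nr4a1. Glycolysis genes had 2 of 19 higher and 3 lower, among the latter the muscle enolase Eno3 (-1.40, -1.68 to -1.14). Of the higher ones, Pgam2 was at 1.46 but at 0.69 without the top cell in each library. None of 14 heat shock and 9 dystrophin complex genes was past 2-fold. Of 9 fusion and adhesion genes, Mymk was higher (1.34, 1.07 to 1.61, with 62% of its dKO UMIs in 1 cell and 0.51 without the top cell in each library) and the rule genes Cdh15 and Megf10 were lower, and of 6 synapse genes Dok7 was lower with 5 against 62 UMIs (-1.69, -3.36 to -0.39).

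Because Myog-positive cells contributed unequally, the comparison was repeated on the 18 dKO and 79 Ctrl Myog-negative members, an alternative chosen after seeing the data. Of 4712 genes, 190 (4.03%) were at least 2-fold higher and 348 (7.39%) at least 2-fold lower. All 20 named genes kept their direction with intervals off a ratio of 1. These cells, however, hold 426958 of the 601933 dKO and 1352294 of the 2317381 Ctrl member UMIs by which the genes were named. Kept directions were therefore nearly fixed in advance and support nothing. B2m stood at 698 against 229 CPM (1.61, 1.38 to 1.85) and Igfbp5 at 9.37 against 303 CPM (-5.02, -6.90 to -3.65). Chchd10 and Suclg2 had 0 UMIs in the 18 dKO cells and 116 and 65 in the Ctrl cells. The interferon and MHC class I list had 7 of 8 measured genes 2-fold higher, at a median of 1.64, and the cell cycle list 9 of 22 higher and 0 lower, at 0.94. Only 6 sarcomere genes were measured among these cells, with 0 higher and 3 lower, at a median of -0.93. Cxcl2 turned to -1.36 (-2.74 to -0.23), and Cdkn1c at 53.9 against 104 CPM (-0.94, -1.65 to -0.30), Id1 (-0.14) and Igf2 (0.55) fell short of 2-fold.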

How the data were processed

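The authors deposited 1 matrix of UMI counts per library (24984 genes, with no mitochondrially encoded gene), made with Cell Ranger 7.0.0 on mm10 and analysed in Seurat 4.3.0 per the submitters' notes. The matrix header names software version 3.0.2. The study states 4335 and 3329 cells after filtering and doublet removal, and here 4335 and 3329 of 4527 and 3483 barcodes had 500 genes with no doublet removed, at 45556596 and 33815155 UMIs in total.

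UMIs were summed over the cells of a group and scaled to 1000000 UMIs of the group's total (CPM). Ratios carry conditional binomial, levels exact Poisson, shares exact binomial (Clopper-Pearson) and share differences Newcombe intervals at 95%. No test between genotypes was possible with 1 library a group. A gene was measured with at least 50 UMIs over both sides and counted past 2-fold by its ratio, and a side at 0 was set to 3 UMIs for the ratio. Named genes were the 10 (dKO against Ctrl) or 15 (Myog, in Ctrl) with the highest and lowest counting bound nearest to 1 and no cell holding over 25% of the UMIs on the higher side, without the rule genes, the genes required at 0, Yy1 and Ccl5. Genes of 19 role lists (407 genes) could also be named. The members, lists and rules were chosen with earlier results of these data known. The code was tested on simulated data. Python 3.11.15, numpy 2.4.6, scipy 1.17.1, pandas 2.3.3, statsmodels 0.14.6 and matplotlib 3.10.9 were used. Promoter windows and gene positions came from RefSeq GRCm38.p6. Alternatives changed the marker and gene minimums, the genes required at 0, depth, scaling, the UMI minimum and the deepest cells. Some items are not reported here.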

Additional observations from a re-analysis of the deposited data

Results flagged for a closer look

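For 4 gene lists the median ratio by Myog lay on opposite sides of 1 in the 2 libraries, on genes measured in both. The 18 cell cycle genes had a median log2 ratio, Myog-positive over Myog-negative, of 0.22 in Ctrl and -2.78 in dKO, where the Myog-positive side is 4 cells, with 1 gene 2-fold higher and 0 lower in Ctrl and 0 higher and 17 lower in dKO. The 10 satellite cell and quiescence genes stood at -0.81 in Ctrl, with 0 higher and 1 lower, and at 0.34 in dKO, with 2 higher and 2 lower. The 5 interferon response and MHC class I genes stood at -0.31 and 0.28, with 0 past 2-fold in either library. The 9 growth factors, binding proteins and imprinted genes stood at -0.15, with 3 higher and 1 lower, and at 0.83, with 4 higher and 1 lower. With 1 library per genotype the difference between libraries was not tested for any of these lists.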

How the results depend on the processing

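No paired analysis was possible because each genotype has 1 pooled library. The dKO side rests on 22 cells, 4 of them Myog-positive, and 57.5% of its UMIs on 5 cells. Across alternatives, 235 of 280 values of the genes named for dKO against Ctrl and 347 of 450 of those named for Myog stayed within the interval of the reported value. A list median counted as moved past 0.5 on the log2 scale, which 19 of 265 and 42 of 277 did. The cause of a shift was not tested, except that a UMI minimum changes how many genes are tested. The difference in member share was -1.22 points with at least 4 rule genes, -0.668 with at most 3 markers of each other non-muscle class, and -0.532 with the rule applied to cells thinned to 2000 UMIs. Under that marker limit dKO against Ctrl gave 74 genes higher and 142 lower, Top2a reversed to -1.03, and Myog gave 132 higher, 183 lower and 4 lists in place of 8 with a median above that of all genes. Without the 7.5% of cells with most UMIs the Ctrl Myog-positive share was 15.3% and dKO against Ctrl gave 204 lower. Thinning to 5000 UMIs left 80 genes higher, 177 lower and 4 lists above by Myog, and at least 2 rule genes gave 636 lower. The mean of each cell's CPM gave 412 higher for dKO, and 514 higher and 667 lower for Myog. At 20 UMIs per gene the counts were 491 and 833 for dKO, and 444 and 854 for Myog, and at 200 UMIs 33 and 83, and 69 and 100. Without the top cell of each gene, dKO against Ctrl gave 119 higher and 748 lower. Chosen after seeing the data, Myog-negative members only left 5 lists in place of 10 above the median for dKO, members with at least 20000 UMIs left 148 lower by Myog, and the thinned rule, these subsets and the tenocyte limit were added in the same way.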
